A study of Mus musculus with 51 samples.

Results

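RNA-seq libraries of maternal null mouse embryonic stem cells (mESCs) were compared between day 0 and day 2 of differentiation, the interval in which the cells were moved from LIF-containing medium into N2B27 medium with basic FGF. The libraries were chosen by their labels: those of maternal null cells in DMEM with LIF (day 0, n = 3) and those of maternal null cells at day 2 of differentiation (day 2, n = 4), 7 of the 51 samples of the series. They were read gene by gene in the 2 deposited tables of expression values, 1 with 34 differentiation factors and 1 with 39 Hox genes. The maternal null cells (Smchd1 matΔ) carry a deleted maternal Smchd1 allele on a C57BL/6 background, removed in the oocyte by Cre under the Zp3 promoter in Smchd1 fl/fl mothers, and an intact paternal allele from a Castaneus (Cast) father. SMCHD1 was thus missing from the oocyte, while the cells themselves were heterozygous. The reference cells (Smchd1 wt, Smchd1 fl/+) came from the same cross with mothers lacking Cre, and both genotypes are male lines derived from blastocysts and grown in 2i + LIF medium. Before day 0 they were moved stepwise through mixtures with a rising share of serum-containing DMEM with LIF. The last mixture described still held some 2i + LIF medium. Cells for day 0 were also seeded more densely than those for day 2. The labels assign replicates 1 to 3 to line 1 and replicate 4 to line 2, by which the maternal null day 0 group held no library of line 2. The study's own description instead has the replicates of each group come from technical replicates of 2 lines, so the line of each library is uncertain. The p-values measure only the spread between these libraries, which may be technical. Smchd1 itself was not analysed here.

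LIF holds mESCs in naive pluripotency, a state kept by a network of transcription factors that includes Klf2, Klf4, Klf5, Esrrb, Tbx3, Tfcp2l1 and Nr0b1 around the core factors Pou5f1, Sox2 and Nanog. When LIF is withdrawn and FGF is supplied, the naive factors are known to be lost first, while Pou5f1 is kept as cells pass to an epiblast-like state. Primitive streak and neuromesodermal genes such as T (listed as Tbra), Nkx1-2 and the Cdx genes, and then the Hox genes from the 3′ end of each cluster, are known to be activated later, mostly once Wnt signalling is added, which in this protocol came after day 2.

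The values are log2 RPKM, that is log2 of reads per kilobase of exon per M (mega) reads of the library, so that a difference of 1 is a 2-fold difference. A gene without reads carries the value of 0.9 reads, which lies lower in a deeper library. From this value the depth of the 7 libraries could be worked out, and it ran from 3.87 to 126.8 M reads, the latter in day 2 replicate 4. In day 0 replicates 1 and 2 Pou5f1, the POU factor that defines pluripotent cells, was the highest of the 34 factors, at 9.11 and 8.62 log2 RPKM. It was also the highest in every day 2 library, so that it does not tell the days apart.

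Day 0 replicate 3 stood apart from the other 6 libraries. Its highest factor value was 5.31 (Tdgf1), against 7.36 to 9.11 in the others, and its Pou5f1 value was 4.77. It lay below both other day 0 libraries for 30 of the 34 factors. The 6 factors with a mean above 6 log2 RPKM in replicates 1 and 2 were lower in replicate 3 by a median difference of -2.36, while the 12 factors with a mean below 1 differed by a median of -0.82, ranging from -2.45 to 1.19. Differences between days are therefore given with all 7 libraries and without this one, and what made it differ was not tested.

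Across the 2 days the naive factors Klf4, Nr0b1 and Esrrb fell, by 6.03-fold to 13.7-fold. With all 7 libraries, 3 of the 34 factors were lower at day 2 (8.82% of those tested) and none was higher at an adjusted p below 0.05 in limma, with 12 at an unadjusted p below 0.05. With the replicate number as a block, 4 were lower and 1 higher, Wnt5a and Nkx1-2 joining the 3. All 3 belong to the naive list, of which 10 members were measured. Without day 0 replicate 3, 11 of the 34 factors were lower (32.4%) and again none was higher, and these 11 comprised 7 of the 10 naive factors, 2 of the 6 core factors, and Fbxo15 and Wnt5a. The median difference between days was -1.80 over the naive list with all libraries, and -1.27 over all 34 factors, and without replicate 3 it was -2.28 over the naive list and -1.63 over all 34. In bulk RNA, fewer cells expressing a gene and less of its RNA per cell cannot be told apart.

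**Figure D1:**
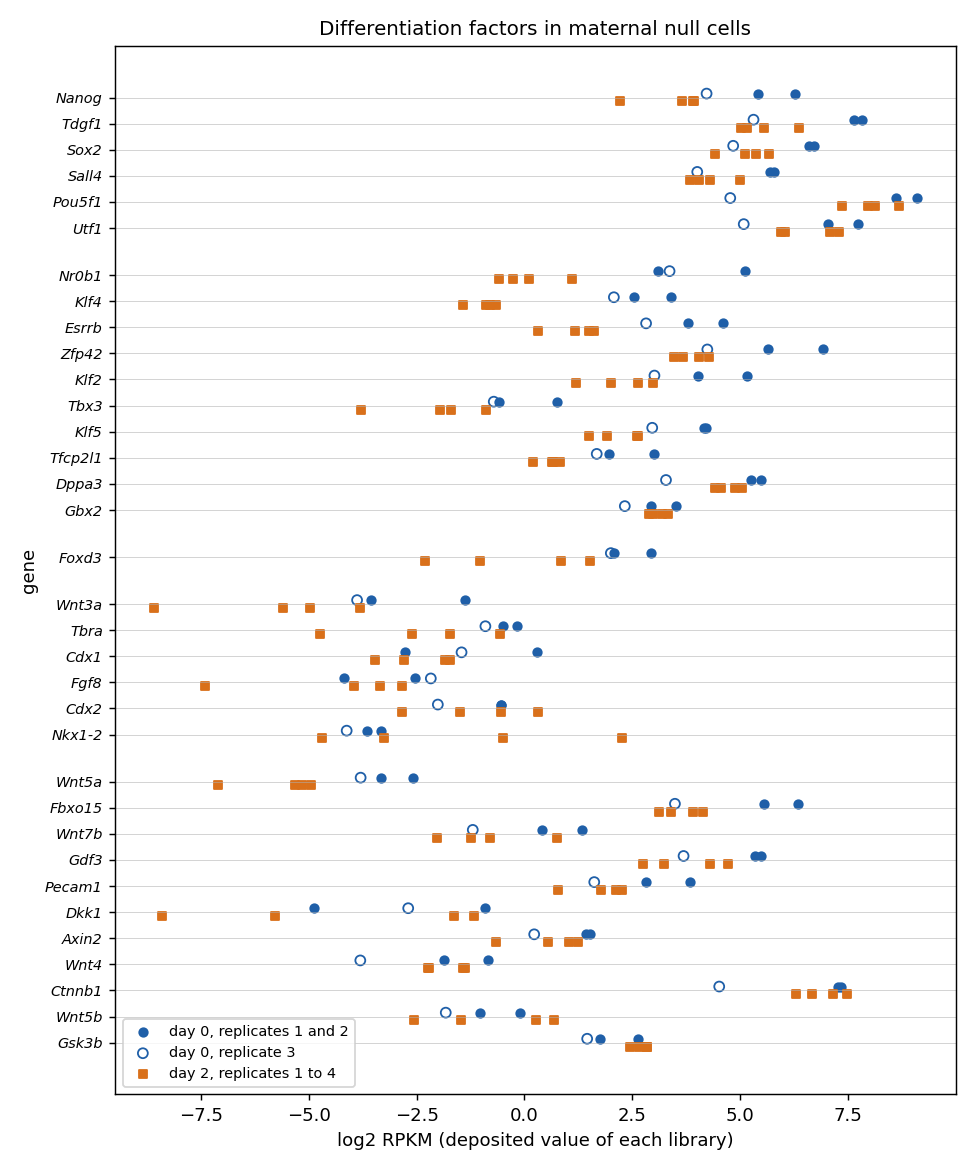
Log2 RPKM of each of the 34 factors (rows, grouped from top to bottom as core, naive, Foxd3, streak and neuromesodermal, and other genes) in each maternal null library. Circles are day 0 libraries, with replicate 3 open, and squares are the 4 day 2 libraries. The 4 day 2 squares lie left of all 3 circles for 10 of the 34 genes, 7 of them naive factors, and the open circle lies left of both filled circles for 30 genes.

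Klf4, a Krüppel-like transcription factor and one of the reprogramming factors, showed the best separated change. It lay at 3.41, 2.55 and 2.07 log2 RPKM in day 0 replicates 1 to 3 and at -0.66, -0.80, -0.89 and -1.41 in day 2 replicates 1 to 4. Every day 2 library was thus well below every day 0 library, and the day 2 values were close to each other. The mean fell from 2.68 ± 0.68 (SD, n = 3) to -0.94 ± 0.33 (SD, n = 4), a difference of -3.62 (SE 0.66), or 12.3-fold, with an adjusted p of 0.0035 in limma. Without day 0 replicate 3 the difference was -3.92 (limma adjusted p = 0.0033).

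Nr0b1 encodes the orphan nuclear receptor DAX1, which acts with Pou5f1 and Nanog in mESCs. Its values were 5.12, 3.10 and 3.37 log2 RPKM at day 0 and -0.28, 1.11, -0.59 and 0.11 at day 2. The groups did not overlap, although day 0 replicate 1 lay well above the other day 0 libraries. The difference was -3.77 (SE 0.75), or 13.7-fold, with a limma adjusted p of 0.0039 and of 0.012 without day 0 replicate 3. Klf4 and Nr0b1 were called under every alternative that was run.

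Esrrb, the oestrogen-related receptor that can stand in for other naive factors, lay at 4.61, 3.79 and 2.82 log2 RPKM at day 0 and at 1.17, 1.62, 1.49 and 0.32 at day 2. The groups again did not overlap, with day 0 replicate 3 nearest to the day 2 libraries. The difference was -2.59 (SE 0.70), or 6.03-fold, with a limma adjusted p of 0.031. The call was less firm than those of Klf4 and Nr0b1: it was lost when any library other than day 0 replicate 3 or day 2 replicate 2 was left out, at limma adjusted p from 0.0591 to 0.143, with differences from -2.71 to -2.16, and in a fit over both tables together (limma adjusted p = 0.111). Without day 0 replicate 3 the difference was -3.05 (limma adjusted p = 0.012).

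The sequences upstream of the starts of these 3 genes are shown because they are the genes called lower with all libraries. They are the 250 bases before the start, read 5′ to 3′ on the strand of the gene from RefSeq on GRCm38.p6, in which all 3 genes were found. Short motifs, 4 in all, spelt below, were searched on both strands and stand in capitals. The Klf4 sequence lies at chr4:55532476-55532725 (minus strand), that of Nr0b1 at chrX:86191525-86191774 (plus strand) and that of Esrrb at chr12:86360867-86361116 (plus strand), ending at the first base before the annotated gene. RefSeq lists a second Esrrb start inside the gene, which is not shown.
Klf4: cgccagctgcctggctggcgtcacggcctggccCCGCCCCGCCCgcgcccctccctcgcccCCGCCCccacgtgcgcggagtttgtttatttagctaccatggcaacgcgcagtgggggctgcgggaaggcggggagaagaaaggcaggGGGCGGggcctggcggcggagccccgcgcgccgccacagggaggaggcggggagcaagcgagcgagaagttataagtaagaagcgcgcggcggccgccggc
Nr0b1: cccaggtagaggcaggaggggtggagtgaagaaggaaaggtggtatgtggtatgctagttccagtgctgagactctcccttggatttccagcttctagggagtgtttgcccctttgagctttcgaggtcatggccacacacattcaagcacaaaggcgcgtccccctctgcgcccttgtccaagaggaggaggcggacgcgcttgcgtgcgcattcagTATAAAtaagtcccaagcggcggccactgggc
Esrrb: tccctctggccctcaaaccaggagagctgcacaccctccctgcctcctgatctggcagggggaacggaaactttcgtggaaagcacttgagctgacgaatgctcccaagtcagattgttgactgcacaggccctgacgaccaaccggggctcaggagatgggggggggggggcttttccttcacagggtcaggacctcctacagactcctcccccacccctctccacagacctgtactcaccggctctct
The Klf4 sequence holds 4 matches to the GC box GGGCGG, of which a pair overlaps by its end base, and the Nr0b1 sequence holds 1 TATAAA. The Esrrb sequence shown holds no match to any of the 4 motifs. The 250 bases before the second Esrrb start hold 1 CCAAT and have a GC content of 52%. Over the same window in 32851 RefSeq promoters, GGGCGG was found in 32.7%, TATAAA in 12.4%, CCAAT in 33.8% and the octamer ATGCAAAT, a Pou-factor motif, in 1.60%. The 3 upstream sequences thus share no motif of the 4, and their GC content was 74% for Klf4, 57.2% for Nr0b1 and 60.8% for Esrrb against a median of 52.4% over all promoters.

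The other naive factors divided into a group that was lower at day 2 and a pair, Dppa3 and Gbx2, whose means over all libraries were near those of day 0. With all 7 libraries, the day 2 values of 10 of the 34 factors lay wholly below those of day 0 (29.4%), and without day 0 replicate 3 those of 21 did (61.8%). Klf2, Klf5, Tbx3 and Tfcp2l1 are among the 10. Klf2 lay at 5.16, 4.02 and 3.02 log2 RPKM at day 0 and at 2.99, 2.62, 2.00 and 1.19 at day 2, so that day 0 replicate 3 and day 2 replicate 1 nearly touched. Its difference of -1.86 did not pass (limma adjusted p = 0.103), and without day 0 replicate 3 it was -2.39 and passed (limma adjusted p = 0.027). Klf5, a Krüppel-like factor redundant in part with Klf2 and Klf4, lay at 4.22, 4.18 and 2.96 at day 0 and at 1.49, 1.92, 2.61 and 2.63 at day 2. It differed by -1.62 with all libraries and by -2.03 without replicate 3 (limma adjusted p = 0.103 and 0.0259). Tfcp2l1, a transcription factor that works downstream of LIF, went from 3.00, 1.96 and 1.68 to 0.20, 0.67, 0.84 and 0.64, a difference of -1.63 that became -1.90 without replicate 3 (limma adjusted p = 0.103 and 0.0259).

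Zfp42 (Rex1), a zinc-finger gene long used as a marker of naive cells, lay at 6.93, 5.64 and 4.24 log2 RPKM at day 0 and at 4.29, 4.05, 3.68 and 3.46 at day 2. Only the day 0 replicate 3 value fell within the day 2 range, and the difference was -1.73 with it and -2.42 without it (limma adjusted p = 0.105 and 0.0219). Tbx3, a T-box factor at the low end of the list, differed by -1.90 and by -2.17 without replicate 3, neither of which passed (limma adjusted p = 0.103 and 0.0808). Limma-voom on reads recovered from the log2 RPKM values called Tbx3 lower without replicate 3 (adjusted p = 0.024), but not with all libraries (adjusted p = 0.093). Dppa3 and Gbx2 had the smallest differences of the list. Dppa3 (Stella) lay at 5.49, 5.24 and 3.28 at day 0 and between 4.42 and 5.05 at day 2, and Gbx2, a homeobox gene, at 3.50, 2.95 and 2.33 at day 0 and between 2.90 and 3.32 at day 2. Their differences were 0.05 (SE 0.72) and 0.17 (SE 0.64), and -0.64 and -0.13 without replicate 3, and none passed. Without replicate 3 the Dppa3 values of day 2 lay wholly below those of day 0, as did those of 9 of the 10 naive factors, Gbx2 being the exception. The spread of the whole list was wide: between Nr0b1 and Gbx2 the difference between days ranged from -3.77 to 0.17.

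**Figure D2:**
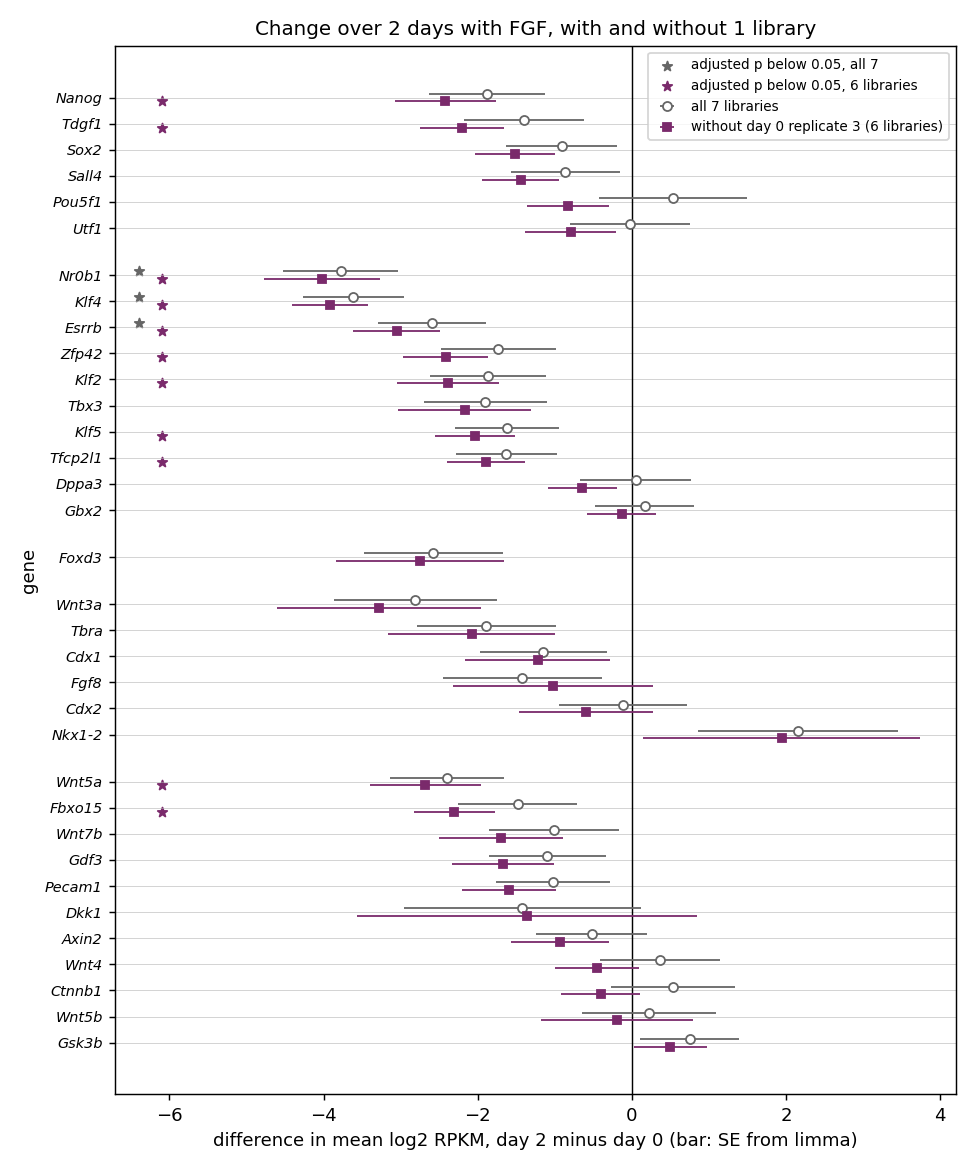
Difference in mean log2 RPKM, day 2 minus day 0, of each factor in maternal null cells (horizontal axis), with all 7 libraries (open circles) and without day 0 replicate 3 (squares), and bars of 1 SE from limma. Stars on the left mark the 3 and the 11 genes with an adjusted p below 0.05 in each fit. Leaving out the library moved most points to the left, and 6 genes, Pou5f1 among them, changed sign.

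The core pluripotency factors had a median difference of -0.89 with all libraries and of -1.48 without day 0 replicate 3. Of 6 measured, none passed with all libraries, and Nanog and Tdgf1 passed without replicate 3. Nanog, a homeodomain factor of the core network, lay at 6.28, 5.42 and 4.22 log2 RPKM at day 0 and at 2.21, 3.65, 3.94 and 3.90 at day 2. The groups did not overlap, but day 0 replicate 3 and day 2 replicate 3 were only a small step apart, while day 2 replicate 1 was far below the rest. The difference was -1.88 (SE 0.75, limma adjusted p = 0.103), and -2.42 (SE 0.65, limma adjusted p = 0.0259) without day 0 replicate 3. Tdgf1 (Cripto), a co-receptor of Nodal, went from 7.82, 7.64 and 5.31 to 5.16, 5.03, 6.37 and 5.56, with differences of -1.40 and -2.20 (limma adjusted p = 0.216 and 0.0259).

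Pou5f1 had no direction that held. It lay at 9.11, 8.62 and 4.77 log2 RPKM at day 0 and at 8.69, 8.13, 7.97 and 7.36 at day 2, so that it was still the highest factor in all 4 day 2 libraries. With all libraries the day 2 mean was 0.53 above the day 0 mean (SE 0.96, limma adjusted p = 0.716), and without day 0 replicate 3 it was below it, at a difference of -0.83 (SE 0.53, limma adjusted p = 0.261). Sox2, the HMG-box partner of Pou5f1, lay at 6.60, 6.73 and 4.84 at day 0 and between 4.42 and 5.68 at day 2, and its differences of -0.91 and -1.52 did not pass (limma adjusted p = 0.367 and 0.0609). Sall4, a zinc-finger factor, and Utf1, a chromatin-bound factor of undifferentiated cells, differed by -0.87 and -0.03 with all libraries, and by -1.44 and -0.79 without replicate 3, and did not pass either. Without replicate 3, limma-voom on recovered reads called Sox2 and Sall4 lower (adjusted p = 0.031 and 0.010), but not Pou5f1 and Utf1 (adjusted p = 0.094 and 0.176).

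The remaining pluripotency-linked genes of the table gave the same picture. Fbxo15, an F-box gene known as a reporter locus of the mESC state, lay at 6.34, 5.56 and 3.49 log2 RPKM at day 0 and at 4.15, 3.92, 3.40 and 3.12 at day 2. Its difference was -1.48 with all libraries and -2.30 without replicate 3, where it passed (limma adjusted p = 0.191 and 0.0219). Gdf3, a TGF-β family ligand, and Pecam1, an adhesion molecule of naive cells, differed by -1.10 and -1.02 and by -1.68 and -1.59 without replicate 3, and none of these passed. Limma-voom on recovered reads called both lower without replicate 3 (adjusted p = 0.010 and 0.018), but not with all libraries (adjusted p = 0.325 and 0.368). Foxd3, a forkhead factor of mESCs and the epiblast and the sole measured member of the formative list, lay at 2.94, 2.08 and 2.00 at day 0 and at 0.84, 1.53, -1.03 and -2.30 at day 2. The groups did not overlap, and within day 2 replicates 3 and 4 were lower than replicates 1 and 2. The difference of -2.58 (SE 0.90) did not pass (limma adjusted p = 0.0925), nor did that of -2.75 without day 0 replicate 3 (limma adjusted p = 0.0808). Limma-voom on recovered reads called Foxd3 lower both with all libraries (adjusted p = 0.013) and without day 0 replicate 3 (-3.30, adjusted p = 0.0015). Of the lists of presomitic mesoderm, neural and endoderm genes, 0 members were in the table.

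Of the 6 primitive streak and neuromesodermal genes measured, none passed in either direction in limma on the log2 values with all libraries. At day 2, 5 had a lower mean, and the median difference was -1.28, close to that over all 34 factors. Nkx1-2, a homeobox gene of the caudal epiblast, was the exception in direction. It lay at -3.32, -3.66 and -4.12 log2 RPKM at day 0, and at -0.49 and 2.26 in day 2 replicates 1 and 2 but at -4.69 and -3.27 in replicates 3 and 4. These values rest on 4, 1 and 5 reads at day 0 and on 53, 161, 2 and 43 at day 2. The day 2 libraries were thus split, with replicates 1 and 2 well above all day 0 libraries, replicate 4 just above the highest of them and replicate 3 below them all. The difference of 2.16 (SE 1.30) did not pass (limma adjusted p = 0.256), nor did that of 1.94 without day 0 replicate 3 (limma adjusted p = 0.411). It passed with the replicate number as a block, where day 2 replicate 4 has no partner and adds nothing (difference 2.73, limma adjusted p = 0.0070), and with day 2 replicate 4 left out (limma adjusted p = 0.0287). Within replicate 3, however, day 2 was below day 0 by -0.56, on 5 reads at day 0 and 2 at day 2.

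T (Tbra), the T-box factor that marks the primitive streak, was low at both days, at -0.50, -0.16 and -0.91 log2 RPKM at day 0 and at -1.72, -0.57, -2.61 and -4.74 at day 2, a difference of -1.89 that did not pass (limma adjusted p = 0.147), nor did that of -2.08 without day 0 replicate 3 (limma adjusted p = 0.164). Wnt3a, a canonical Wnt ligand of the caudal epiblast, lay between -3.88 and -1.38 at day 0 and between -8.60 and -3.83 at day 2, where the lowest value is the no-read value of the deepest library. The difference was -2.81 (limma adjusted p = 0.103), and -3.28 without day 0 replicate 3 (limma adjusted p = 0.0808). Wnt3a had 13, 0 and 5 reads at day 0 and 2, 2, 0 and 0 at day 2. With 1 common no-read value the difference was -0.73, but that setting also raises values that rest on reads. Limma-voom on recovered reads gave -3.37 (adjusted p = 0.075), and -3.93 without day 0 replicate 3 (adjusted p = 0.046). Cdx1, Cdx2 and Fgf8 differed by -1.15, -0.11 and -1.42 with all libraries and by -1.22, -0.60 and -1.02 without day 0 replicate 3, and overlapped between days in both. Fgf8 had 0, 0 and 8 reads at day 0 and 3, 0, 3 and 1 at day 2. Without day 0 replicate 3 its day 0 values are thus all no-read values, and with 1 common no-read value its difference over all libraries was -0.12.

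Among the 8 Wnt pathway genes, grouped after their values were seen, Wnt5a, a ligand of mostly non-canonical signalling, was the one whose groups did not overlap. It was barely detected at -2.58, -3.34 and -3.80 log2 RPKM at day 0 and lower still at -5.16, -5.33, -7.10 and -4.95 at day 2. These values rest on 16, 3 and 15 reads at day 0 and on 5, 2, 0 and 32 at day 2, so that the -7.10 is a no-read value. The difference was -2.40 (SE 0.74, limma adjusted p = 0.054), and it passed without day 0 replicate 3 (-2.68, limma adjusted p = 0.0259) and with the replicate block (-2.62, limma adjusted p = 0.0082). Limma-voom on recovered reads gave it an adjusted p of 0.120. With 1 added to the RPKM before the log its difference was -0.12, and with 0.1 added it was -0.77 (limma adjusted p = 0.674 and 0.313). Of the 18 alternatives run, Wnt5a passed in 6. Ctnnb1, which encodes β-catenin, lay at 7.35 and 7.28 in day 0 replicates 1 and 2, at 4.52 in replicate 3 and between 6.30 and 7.49 at day 2, and its difference changed from 0.53 to -0.40 when replicate 3 was left out. Gsk3b, the kinase that marks β-catenin for destruction, was 0.75 higher at day 2 (SE 0.64, limma adjusted p = 0.375) and was the only one of the 34 factors besides Nkx1-2 with a higher mean both with and without replicate 3. The Wnt feedback genes Axin2 and Dkk1 and the ligands Wnt4, Wnt5b and Wnt7b had differences from -1.42 to 0.37, and from -1.70 to -0.19 without day 0 replicate 3, with no call. The -1.42 belongs to Dkk1, which had 1, 5 and 10 reads at day 0 and 1, 8, 17 and 0 at day 2. Its difference was -0.065 with 1 common no-read value, a setting that also raises values resting on reads. Limma-voom on recovered reads gave Dkk1 a difference of -2.33 (adjusted p = 0.176).

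Day 1 libraries of the maternal null cells (n = 4) were used as a description of the path between the days. Day 1 replicate 4 had no reads on any of the 36 tabulated genes outside chromosomes 1 to 8, and its values are left out here. The median of the other 3 day 1 libraries lay between the day 0 mean of replicates 1 and 2 and the day 2 mean for 26 of 34 factors and for 8 of the 10 naive factors, the exceptions being Dppa3 and Gbx2. Day 1 replicate 3 was shallow, at 1.47 M reads, with no reads on 7 of the 34 factors, and its Klf4 value rests on 3 reads. Klf4 was already low at day 1, at -0.10, 0.34 and -0.58 log2 RPKM, nearer to day 2 than to day 0. Nr0b1, at 2.65, 2.22 and 2.17, and Esrrb, at 2.46, 2.96 and 2.63, were part of the way down. Pou5f1, at 9.35, 8.23 and 8.73, was level with day 0 replicates 1 and 2.

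**Figure D3:**
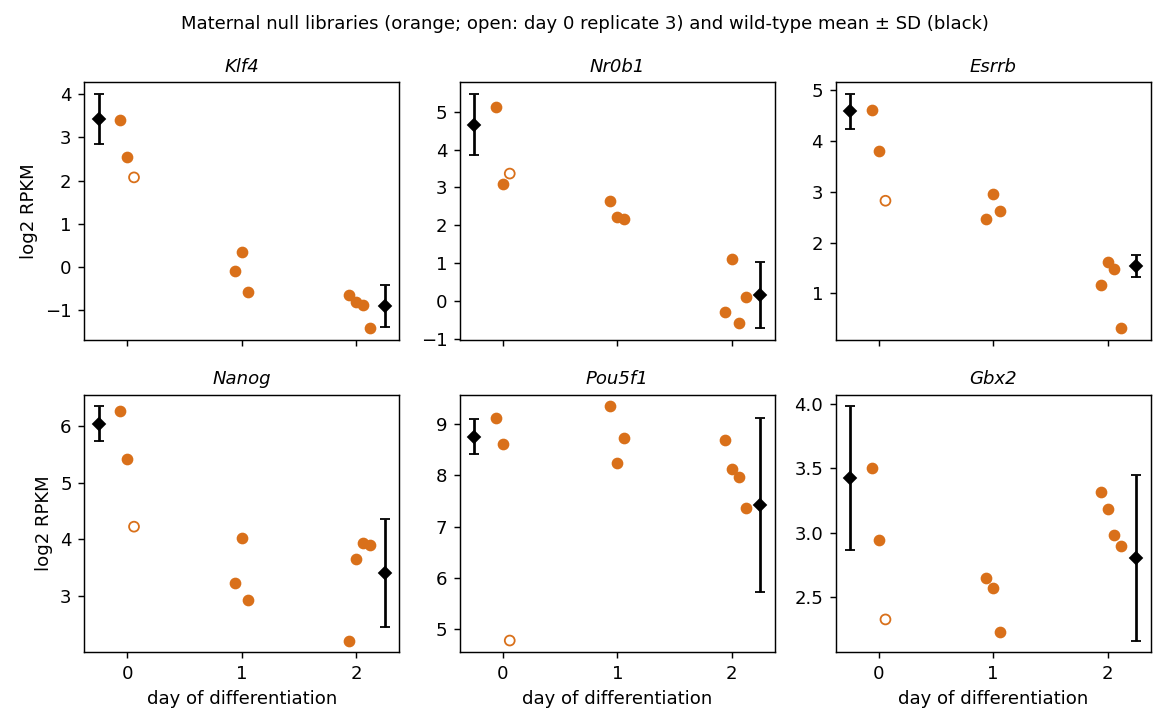
Log2 RPKM of 6 genes by day in maternal null libraries (orange points, 3 at day 0, replicates 1 to 3 at day 1, 4 at day 2; the open point is day 0 replicate 3), with the wild-type mean ± SD (black diamonds, n = 4 each at day 0 and day 2). Each panel has its own vertical axis. Klf4 is near its day 2 level at day 1, and Nr0b1 and Esrrb are between. Pou5f1 lies at 9.11 and 8.62 in the filled day 0 points and from 7.36 to 8.69 at day 2.

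The same comparison in wild-type cells (n = 4 at each day) is given for reference. There, 19 of the 34 factors were lower at day 2 (55.9%) and 1, Nkx1-2, was higher (2.94%) in limma. The differences of Klf4, Nr0b1 and Esrrb were -4.34, -4.49 and -3.04, and 10 of the 11 maternal null genes called without day 0 replicate 3 were also called in wild-type cells, the exception being Wnt5a (-1.60, limma adjusted p = 0.130). Whether the change between days differed by genotype was tested as an interaction: 0 of 34 factors passed (0%), with 0 at an unadjusted p below 0.05 and the lowest limma adjusted p at 0.653. The interaction was 0.72 (SE 0.65) for Klf4, 0.72 (SE 0.89) for Nr0b1 and 0.45 (SE 0.66) for Esrrb, in log2 units of maternal null change minus wild-type change. It was above 0 for 30 of 34 factors with all libraries and for 8 of 34 when day 0 replicate 3 and wild-type day 2 replicates 3 and 4 were left out, so that its sign rested on these libraries. Wild-type day 2 replicate 3 had a highest factor value of 5.29, much like maternal null day 0 replicate 3, and wild-type day 2 replicate 4 was shallow, with 2.69 M reads by its no-read value in the factor table and 0.346 M by that in the Hox table.

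Hox genes were at the edge of detection at both days. Of the 273 Hox values in the 7 libraries, 158 had no reads, and no Hox gene had a mean above 0 log2 RPKM over the 7 libraries. No Hox gene passed in limma in either direction (0% of 39 lower and 0% higher), with 4 at an unadjusted p below 0.05, while limma-voom on recovered reads called 3, among them Hoxb13 and Hoxd11, both lower. Because the no-read value moves with depth, the 6 Hox genes that no library had read carry a difference of -1.27 that is no change in reads. Hox genes are therefore described below in RPM (reads per M reads) as well.

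Hoxd13, the most 5′ gene of the HoxD cluster, had the most reads of the Hox genes described here at day 0. It had 33, 23 and 84 reads at day 0, or 2.70, 5.94 and 3.14 RPM, and 20, 39, 18 and 151 at day 2, or 0.88, 3.79, 1.14 and 1.19 RPM. Day 2 replicate 2 lay within the day 0 range and the other 3 below it, and the difference of -1.34 log2 RPKM did not pass (limma adjusted p = 0.418), nor did that of -1.46 without day 0 replicate 3 (limma adjusted p = 0.465). Hoxb13 had 10, 0 and 6 reads at day 0 and 0, 0, 1 and 0 at day 2, and Hoxd11 had 8, 0 and 7 and then none in 175.7 M reads. The day 0 reads of both genes came from replicates 1 and 3, and day 0 replicate 2 had none. For Hoxd11 a limit was set at day 2, taking 3 reads over the group as the most that a count of 0 allows. The pooled day 0 rate was 20.5-fold above that limit, and 5.71-fold without day 2 replicate 4, which holds most of the day 2 reads. Without day 0 replicate 3 it was 29.1-fold, on the 8 reads of day 0 replicate 1. The day 0 reads were taken as counted, so these folds are not lower bounds. On the log2 RPKM scale both differed by -3.31 (limma adjusted p = 0.0569), and by -3.63 and -3.50 without day 0 replicate 3 (limma adjusted p = 0.148 for both). With 1 common no-read value for all libraries the differences were -0.61 for Hoxb13 and -0.56 for Hoxd11 (limma adjusted p = 0.866). This setting raises low values to the no-read value of the shallowest library, also where they rest on reads. It therefore cannot show how much of each difference lay in the no-read values. Limma-voom on recovered reads gave -3.94 for Hoxb13 and -4.23 for Hoxd11 (adjusted p = 0.031 and 0.019).

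The remaining Hox genes had few reads. Over 7 genes of paralogue groups 1 to 3 there were 1.64, 0 and 0.86 RPM at day 0 and 2.19, 0.97, 2.98 and 1.85 at day 2. Over the 19 genes of groups 4 to 9 there were 2.37, 0.26 and 1.01 and then 2.68, 2.53, 5.70 and 2.70, so that the day 2 libraries lay above those of day 0 by little in 3 of 4. Over the 11 posterior genes other than Hoxd13 there were 2.05, 1.03 and 1.09 and then 0.66, 0.19, 0.76 and 0.64. These sums describe the libraries and were not tested. Hoxa5 was without reads in the 42.8 M reads of day 0 and had 2, 6, 24 and 74 reads at day 2. Its pooled day 2 rate, with the reads taken as counted, was 8.61-fold above the same kind of limit at day 0. Without day 0 replicate 3 it was 3.24-fold above. Its difference of 2.47 log2 RPKM, and of 1.82 without that library, did not pass (limma adjusted p = 0.316 and 0.351). Hoxb1, the earliest gene of the HoxB cluster, had 12, 0 and 13 reads at day 0 and 22, 3, 0 and 0 at day 2, and Hoxd1 had 1, 0 and 7 and then 2, 0, 6 and 49, and neither passed with or without day 0 replicate 3.

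**Figure D4:**
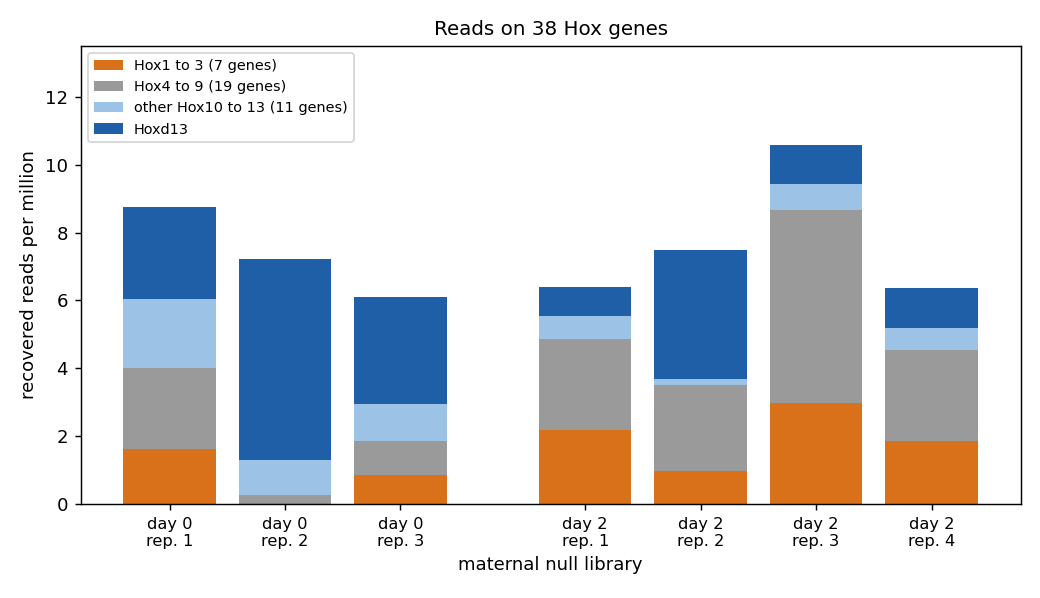
Recovered reads (RPM) on 38 Hox genes in each maternal null library (bars stacked by 7 genes of groups 1 to 3, 19 genes of groups 4 to 9, 11 genes of groups 10 to 13 other than Hoxd13, and Hoxd13). Hoxd13 is the tallest part in the day 0 libraries, at 2.70, 5.94 and 3.14, and the part of groups 4 to 9 reaches 5.70 in day 2 replicate 3.

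For Hox genes 0 of 39 interactions between genotype and day passed (0%), with 0 at an unadjusted p below 0.05 and the lowest limma adjusted p at 0.750. This fit includes wild-type day 2 replicate 4, whose no-read value in the Hox table stands apart, and 0 of 39 passed without that library too, with 0 at an unadjusted p below 0.05. At 3.87 M reads, day 0 replicate 2 had reads on only 5 of the 39 Hox genes, against 20 and 18 in the other day 0 libraries and 19, 12, 21 and 20 at day 2, so that changes of most Hox genes were not detectable at this depth.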

How the data were processed

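The authors trimmed single-end reads (Trim Galore 0.4.4), aligned them to GRCm38.p6 with HISAT2 2.0.5 and quantified genes in SeqMonk. The deposited values are log2 RPKM per library for 34 factors and 39 Hox genes. The deposited count table was not used, because its time course headers are unreliable.

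Members and gene lists were chosen with earlier results of these data known. Groups came from the labels. Each table was fitted separately in limma 3.58.1 (R 4.3.3) on the deposited log2 values of the groups compared, with Benjamini-Hochberg adjustment within the table, called below 0.05, and tested on simulated data. Factors called, and fixed pluripotency, streak and Hox genes, are named with values per library; others by difference or range. Reads were recovered from the no-read value (0.9 reads) and GENCODE M21 exon lengths: all 258 values below 500 reads came out whole within 0.05. Limits on reads cover only the counting error of a count of 0, and the counts set against them were taken as exact.

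The series' design text describes replicates as replicate differentiation experiments, so equal numbers pair the days. Deviations of same-numbered libraries correlated at 0.22, -0.06 and 0.16 over the 34 factors and at -0.09, -0.19 and -0.25 over the Hox genes. Alternatives were other pseudocounts, filters, floors, weights, blocks and libraries left out. 1 Hox gene is not reported here.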

Additional observations from a re-analysis of the deposited data

Results flagged for a closer look

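In groups of 4 libraries, 88 sets of values were checked for a library whose gap to its nearest neighbour took up most of the range, and 5 were marked. Chance alone marks about 1 in 20 such sets. Nanog at maternal null day 2 was marked because replicate 1 lay at 2.21 log2 RPKM and the others between 3.65 and 3.94 (gap over range 0.835). Hoxb4 at maternal null day 2 was marked at 0.839, where replicate 2 lay highest with 4 reads. Pou5f1 at wild-type day 2 was marked at 0.851, through replicate 3. The depth of the day 2 libraries was marked at 0.893 and their sum of Hox reads at 0.890, both through replicate 4, with 126.8 M reads (M, mega) and 77.4% of the Hox reads of the 4 libraries.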

How the results depend on the processing

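The count of maternal null factors called, 3 with all 7 libraries, ranged from 2 to 11 when 1 library was left out. It was 11 without day 0 replicate 3, 2 without either other day 0 library, 2 without day 2 replicate 1 or 3, and 5 without day 2 replicate 2. It was 5 with the replicate block, 9 among the 22 factors with a mean above 0 log2 RPKM, 8 with a mean-variance trend and 8 in a fit over all 4 groups. Among alternatives chosen after seeing the data and without day 0 replicate 3, it was 17 with voom on recovered reads, 13 with a common no-read value and 12 with day 2 replicate 4 also left out. No Hox gene was called with any library left out, with the mean above 0 no Hox gene was left to test, and the count was 1 with a mean-variance trend, 3 with voom on recovered reads and 2 with voom and without day 0 replicate 3. In wild-type cells the Hox count of 0 became 1 with log2(RPKM + 1), and it ranged from 0 to 3 when 1 library was left out, 3 being the value without day 2 replicate 4. The replicate block changed the calls of Wnt5a and Nkx1-2 among the genes named. With 1 library left out, the difference of Pou5f1 ranged from -0.83 to 1.34 and that of Ctnnb1 from -0.40 to 1.01. Both turned only where day 0 replicate 3 was left out. Pou5f1 then went from 0.53 to -0.83, to -0.88 with voom added, to -0.83 with the common no-read value added and to -0.60 with day 2 replicate 4 also left out. In the same order Ctnnb1 went from 0.53 to -0.40, -0.44, -0.40 and -0.20. The cause was not tested.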
